A study of Mus musculus with 2 samples.

Results

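S-opsin dominant cones are the cone photoreceptors of the mouse retina whose visual pigment RNA comes almost wholly from Opn1sw, the gene of the short-wavelength (S) opsin. They were chosen from droplet single-cell RNA sequencing in 3 steps, each on counts of unique molecular identifiers (UMIs, 1 per captured RNA molecule). A barcode was kept when it held 300 or more genes and its mitochondrial UMIs did not exceed 20%. A barcode was a cone when 6 cone genes (Arr3, Opn1sw, Opn1mw, Gnat2, Pde6h and Gngt2) gave at least 10 UMIs and at least 1% of its UMIs, with at least 5 from both opsin genes together. A cone was S-opsin dominant when Opn1sw gave at least 0.9 of the Opn1sw and Opn1mw UMIs. The rule found 139 S-opsin dominant cones among 626 cones, out of 21790 barcodes that passed the filter and 21813 in all. Since these 6 genes chose the cells, their levels below are a description and carry no test.

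The study exposed mice to short-wavelength light or to full-spectrum white light from postnatal day 14 for 2 weeks and sequenced all cells of the retina. Each light condition has 1 library, the labels do not say how many mice gave it, and strain and sex are not stated in them. The short-wavelength library held 92 S-opsin dominant and 363 other cones, and the white-light library 47 and 124. All intervals here are 95% intervals that cover counting error only, and no test between the light conditions was possible.

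Mouse cones make S-opsin, the middle-wavelength (M) opsin of Opn1mw, or both, and the balance follows a gradient from the ventral to the dorsal retina. A minority, known as genuine S-cones, lack M-opsin and contact a dedicated bipolar cell type. Thyroid hormone receptor beta, the product of Thrb, is needed in mice for M-opsin expression and holds back S-opsin.

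The promoter windows of both opsin genes and of Ccdc136 are shown because the opsin genes define the cells and Ccdc136, the gene next to Opn1sw, had the smallest p after Nrxn3 of the genes that rose in them. Each runs 5′ to 3′ on the gene's strand from 250 bases before to 50 bases after the start site (RefSeq, GRCm38.p6, the assembly also called mm10). Capitals mark AGGTCA, the half-site of nuclear receptors, on either strand (TGACCT on the other). The second motif searched was TAATCC, the core bound by the photoreceptor factor CRX, also on both strands (GGATTA).
Opn1sw, chr6:29380464-29380763, minus strand: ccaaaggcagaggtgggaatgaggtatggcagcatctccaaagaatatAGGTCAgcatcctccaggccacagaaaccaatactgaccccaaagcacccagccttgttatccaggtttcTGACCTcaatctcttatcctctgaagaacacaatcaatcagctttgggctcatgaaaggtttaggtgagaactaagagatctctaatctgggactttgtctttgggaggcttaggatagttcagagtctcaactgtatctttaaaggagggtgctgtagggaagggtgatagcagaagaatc
Opn1mw, chrX:74127216-74127515, plus strand: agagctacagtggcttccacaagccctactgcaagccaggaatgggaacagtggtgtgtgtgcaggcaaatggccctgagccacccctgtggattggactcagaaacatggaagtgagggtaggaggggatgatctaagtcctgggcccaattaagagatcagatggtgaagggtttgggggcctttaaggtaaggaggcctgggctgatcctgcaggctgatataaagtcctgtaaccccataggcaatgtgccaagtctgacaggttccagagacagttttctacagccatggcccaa
Ccdc136, chr6:29396325-29396624, plus strand: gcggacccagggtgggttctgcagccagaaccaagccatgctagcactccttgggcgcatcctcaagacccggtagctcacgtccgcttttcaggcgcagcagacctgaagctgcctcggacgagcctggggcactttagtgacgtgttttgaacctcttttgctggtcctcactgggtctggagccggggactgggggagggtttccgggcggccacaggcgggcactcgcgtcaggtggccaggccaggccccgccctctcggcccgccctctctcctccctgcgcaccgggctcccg
The Ccdc136 window is the first of 4 that RefSeq gives for that gene. The Opn1sw window holds 2 matches to AGGTCA, at 202 and 132 bases before the start site. The other windows hold none, and no window holds TAATCC. Of 32851 promoter windows of the same length, 16.3% hold AGGTCA at least once, 1.81% hold it 2 or more times, and 7.06% hold TAATCC. These matches describe letters only and say nothing of a factor's binding.

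The deposited libraries held 16106 barcodes with 51681469 UMIs under short-wavelength light and 5707 barcodes with 20952589 UMIs under white light. They share 26 barcode sequences, none of which is a cone in both, and 1 of which belongs to an S-opsin dominant cone. S-opsin dominant cones had a median of 5401 UMIs in the short-wavelength and 3356 in the white-light library, against 6974 and 7407.5 in the other cones. Under 2500 UMIs lay 21.7% (13.8% to 31.6%) and 40.4% (26.4% to 55.7%) of S-opsin dominant cones, against 12.9% and 20.2% of the other cones. These shallow S-opsin dominant cells had median mitochondrial shares of 7.88% and 7.57% and 8 rod genes (Gnat1, Pde6a, Pde6b, Pde6g, Cnga1, Nrl, Nr2e3 and Gngt1) together at 15787 and 17046 CPM (depth-scaled counts, whose totals leave out the 6 cone genes). The deeper ones had 2.13% and 1.60%, and these rod genes at 10993 and 13985 CPM. The part of shallow cells in the results was not tested beyond the values without them.

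S-opsin dominant cones made up 20.2% of cones (16.6% to 24.2%) in the short-wavelength library and 27.5% (20.9% to 34.8%) in the white-light library. These intervals overlap, and a difference in share was not tested. Among cones with at least 2500 UMIs outside the 6 genes, the shares were 18.6% (14.8% to 22.8%) and 22.0% (15.2% to 30.3%). Just inside the threshold, with Opn1sw shares of 0.90 to 0.95, lay 31 and 9 cones with medians of 92 and 51 Opn1sw UMIs and 8 and 4 Opn1mw UMIs. Just outside it, at 0.85 to 0.90, lay 54 and 12 cones with medians of 100.5 and 119 Opn1sw UMIs and 13.5 and 19 Opn1mw UMIs. The share distribution is thus continuous across the threshold.

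**Figure D1:**
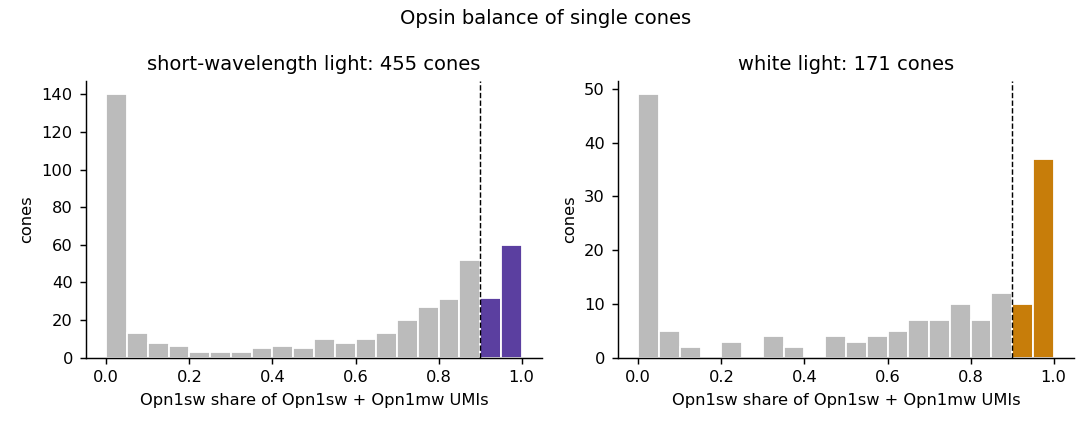
Number of cones by the Opn1sw share of their Opn1sw and Opn1mw UMIs, one panel per library, with S-opsin dominant cones in colour right of the dashed line at 0.9. The 455 short-wavelength and 171 white-light cones gather at both ends of the axis, and the members join the right-hand shoulder without a gap.

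Cone RNA was plain in these cells. Opn1sw stood at a median of 85 UMIs per S-opsin dominant cone under short-wavelength and 75 under white light. Gngt2, the cone transducin gamma subunit gene, stood at 22 in both libraries, Pde6h, the inhibitory subunit gene of the cone phosphodiesterase, at 44 and 29, and Gnat2, the cone transducin alpha subunit gene, at 10 and 7. Arr3, the cone arrestin gene, gave a median of 18 and 6 UMIs, and 5.43% and 8.51% of the members had none, against 0% and 2.42% of the other cones. Cone genes outside the rule were present too. Gnb3, the cone transducin beta subunit gene, stood at 3278 and 2866 CPM, against 114 and 122 CPM in rod barcodes (no cone, and the 8 rod genes giving at least 10 UMIs and at least 1% of UMIs). Pde6c, the cone phosphodiesterase gene, stood at 1146 and 842 CPM and Cngb3, a cone channel subunit gene, at 2977 and 2419 CPM, against 8.97 and 9.46 CPM and 17.1 and 17.6 CPM in rod barcodes. Markers of pigment epithelium, microglia, and amacrine and horizontal cells were near 0: their lists summed to at most 17.4, 39.1 and 80.3 CPM, and the defining genes Rpe65, Csf1r, Aif1, Gad2 and Slc32a1 had no UMI in any member. Müller glia markers summed to 245 and 261 CPM, against 183 and 259 CPM in the other cones. Of these 12 genes, 2 (Sox9 and Aqp4) had no UMI in the members. Of 3 tested against the other cones as described below, 2 were higher and 1 lower. The test called 1 of them higher, where it called 0.658% of all genes tested higher. Haemoglobin and other blood markers summed to 37.2 and 95.6 CPM, against 30.4 and 212.5 CPM.

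The members differed among themselves in their Opn1mw RNA. No Opn1mw UMI was found in 45.7% of them (35.2% to 56.4%) under short-wavelength light and in 46.8% (32.1% to 61.9%) under white light. Cells with an Opn1sw share of at least 0.98, a line drawn after the data were seen, numbered 48 of 92 and 27 of 47. Opn1mw stood there at 21.8 and 43.2 CPM, on 6 and 7 UMIs, while rod barcodes held 33.4 and 37.1 CPM and had an Opn1mw UMI in 8.98% and 10.9% of cells at median depths of 2401 and 2774 UMIs. The share itself holds Opn1mw low in the cells at or above 0.98, where its level was near that in rod barcodes. In the 44 and 20 members between 0.9 and 0.98 it stood at 1292 and 1303 CPM, far above rods and below the 2729 and 2649 CPM of cones between 0.8 and 0.9. Since the rule used these genes, the split is a description.

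Nrxn3 separated the members at the 0.98 line. It encodes neurexin 3, a presynaptic adhesion protein that helps to specify synapses. In members at or above 0.98 it stood at 3018 CPM under short-wavelength and 2124 CPM under white light. Between 0.9 and 0.98 it stood at 153 and 146 CPM, so the ratio was 19.7 (14.1 to 28.4) and 14.5 (7.79 to 30.5). Those lower levels were above the 50.5 and 74.3 CPM of rod barcodes and below those of cones between 0.8 and 0.9, at 292 and 299 CPM. The same UMIs were also counted cell by cell among cells with at least 2500 UMIs, as a description and not as separate support. At least 8 Nrxn3 UMIs per 10000 were found in 31 of 39 short-wavelength members at or above 0.98 (79.5%, 63.5% to 90.7%) and in 12 of 19 white-light ones (63.2%, 38.4% to 83.7%). Between 0.9 and 0.98 it was 2 of 33 and 1 of 9, among the other cones 17 of 316 and 6 of 99, and in rod barcodes 0.519% and 1.06%. The median depths of these sets of cones lay between 5659 and 8118 UMIs outside the 6 genes, and that of rods at 3490.5 and 3508. Members at or above 0.98 held the 8 rod genes at 12807 against 9529 CPM under short-wavelength and at 14769 against 13500 CPM under white light. Among cells with the 8 rod genes at most 1.5% of UMIs and at most 3 UMIs of 8 bipolar genes, called cells with low rod and bipolar RNA here, the Nrxn3 ratio was 28.1 (18.7 to 44.2) and 11.1 (5.66 to 24.9), against 19.7 and 14.5 with all cells.

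**Figure D2:**
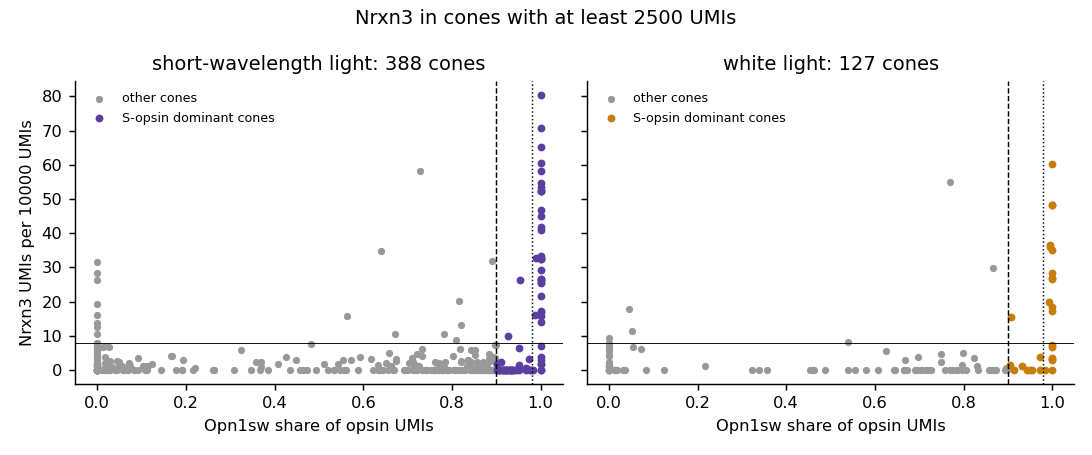
Nrxn3 UMIs per 10000 UMIs outside the rule's genes (vertical) against the Opn1sw share (horizontal) in single cones with at least 2500 UMIs, one panel per library, with lines at shares of 0.9 (dashed) and 0.98 (dotted) and at 8 per 10000. Of the members at or above 0.98, 31 of 39 and 12 of 19 lie on or above the horizontal line, while those between the vertical lines lie near 0 apart from 2 and 1 cells.

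Other genes differed across the same line, some higher and some lower. Over 3279 genes with at least 50 UMIs in the members, 96 (2.93%) were at least 1.5-fold higher at or above 0.98 than between 0.9 and 0.98 in both libraries, and 101 (3.08%) at least 1.5-fold lower. No interval was used in these counts, and the part of counting error in them was not tested. Wscd2, of a sulfotransferase-domain protein, stood at 109 and 111 CPM against 29.8 and 14.6 CPM, the latter on 7 and 1 UMIs. Ralyl, an RNA-binding protein gene, stood at 149 and 148 CPM against 38.2 and 29.3 CPM, the latter on 9 and 2 UMIs. The white-light interval of the Wscd2 ratio was 1.20 to 316, and among cells with at least 2500 UMIs it was 0.828 to 224, which includes 1. Tshz2, a zinc finger transcription factor gene, stood at 10.9 and 12.4 CPM at or above 0.98, on 3 and 2 UMIs, against 255 and 278 CPM below that line. Rgs7, a regulator of G protein signalling, stood at 14.5 and 6.17 CPM against 191 and 205 CPM. Rd3l, a relative of the retinal degeneration gene Rd3, stood at 40.0 and 92.6 CPM against 523 and 483 CPM, and Hopx, a homeodomain-only cofactor gene, at 90.8 and 111 CPM against 595 and 512 CPM. Fzd10, a Wnt receptor gene, and Tenm4, a teneurin adhesion gene, had 1 UMI each at or above 0.98 in the short-wavelength library and none in the white-light library. Between 0.9 and 0.98 Fzd10 stood at 76.5 and 29.3 CPM, on 18 and 2 UMIs, and Tenm4 at 68.0 and 58.6 CPM, on 16 and 4 UMIs. The white-light interval of the Fzd10 ratio, 0 to 2.25, includes 1. Over the 4 classes of cones below 0.98, Rd3l stayed between 376 and 523 CPM.

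Some genes of the phototransduction cascade also differed between the members on either side of 0.98. Arr3 stood at 2357 and 3161 CPM at or above 0.98 against 6001 and 4876 CPM between 0.9 and 0.98, and Pde6h at 6621 and 5625 CPM against 11690 and 10630 CPM. Cngb3, outside the rule, went the other way, at 3658 and 2809 CPM against 2180 and 1493 CPM (ratios 1.68, 1.51 to 1.87, and 1.88, 1.52 to 2.36). Pde6c, at 1166 and 840 CPM against 1122 and 849 CPM, differed by less than counting error. So did Cnga3, at ratios of 0.90 and 0.79. For Gngt2 (0.93 and 0.83) the interval excluded 1 only under white light. For Gnat2 (0.73 and 0.93) and Gnb3 (0.87 and 0.93) it excluded 1 only under short-wavelength light. Kcne2, a potassium channel subunit gene, stood at 385 and 451 CPM against 1114 and 615 CPM, and only under short-wavelength light did the interval of its ratio exclude 1. Mitochondrial RNA was lower at or above 0.98: mt-Co1, of cytochrome c oxidase, stood at 2720 and 2877 CPM against 5062 and 7013 CPM, and the median mitochondrial share was 2.09% and 1.63% against 3.20% and 6.24%. Under 2500 UMIs lay 9 of 48 and 8 of 27 members at or above 0.98, against 11 of 44 and 11 of 20 between 0.9 and 0.98. Among members with at least 2500 UMIs, mt-Co1 stood at 2370 and 2385 CPM against 4353 and 5072 CPM. The part of mitochondrial RNA and of depth in the other differences was not tested.

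**Figure D3:**
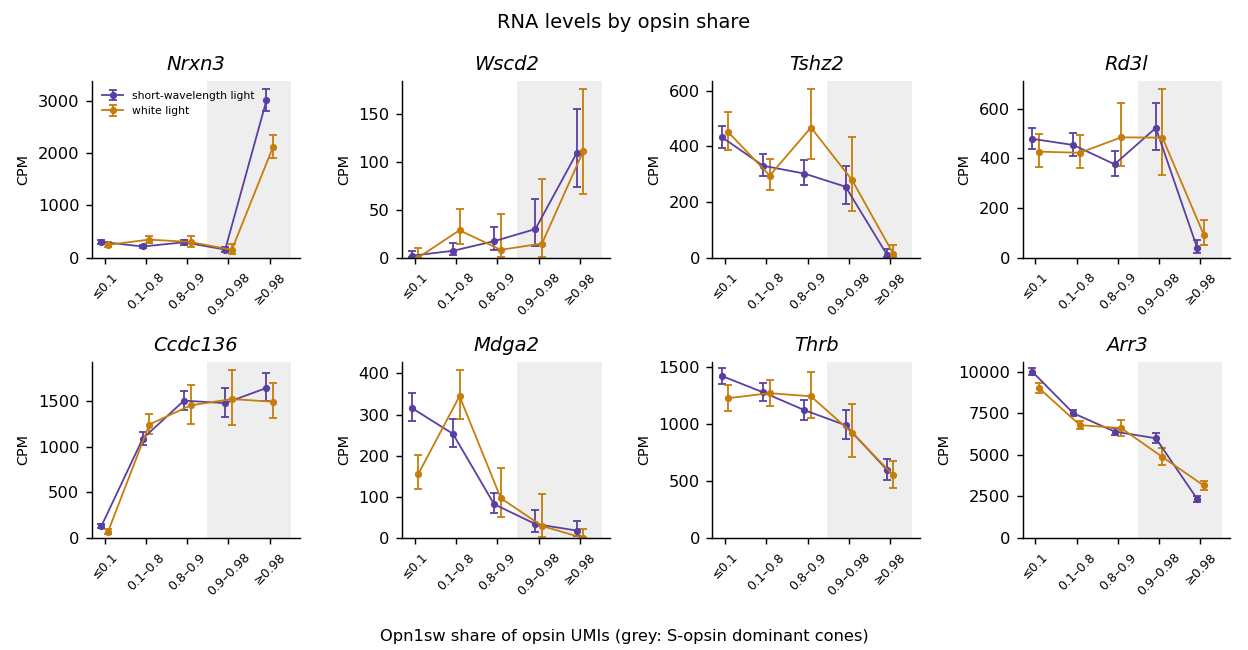
Level in CPM (vertical) of 8 genes summed over cones in 5 classes of Opn1sw share (horizontal), with exact Poisson 95% intervals, for both libraries; the grey area holds the S-opsin dominant cones. Nrxn3 and Wscd2 are highest and Tshz2 and Rd3l lowest in the last class, while Ccdc136, Mdga2, Thrb and Arr3 change over several classes.

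Against the other cones, S-opsin dominant cones differed in 175 of 8819 genes tested (1.98%), of which 58 (0.658%) were higher and 117 (1.33%) lower. UMIs were summed per library and cone group, and the 4 sums were compared with edgeR's quasi-likelihood test with the library as a block, at a Benjamini-Hochberg adjusted p under 0.05. With only 1 residual degree of freedom, the spread of the group difference between libraries was estimated mainly from other genes. DESeq2 called 6 higher and 7 lower. Of the called genes, 57 of 58 and 117 of 117 lay on the same side of 1 in each library alone, the exception being Dqx1, with 32 and 1 UMIs in the members. Both libraries entered the test that called them, so this agreement is a description and not a replication. Cells from the same droplet run share their library. The test sets the group difference against its spread between the 2 libraries, which also differ in light. It does not measure variation between animals. Among cells with low rod and bipolar RNA, 61 and 21 members against 256 and 80 other cones, 13 genes were higher and 21 lower.

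**Figure D4:**
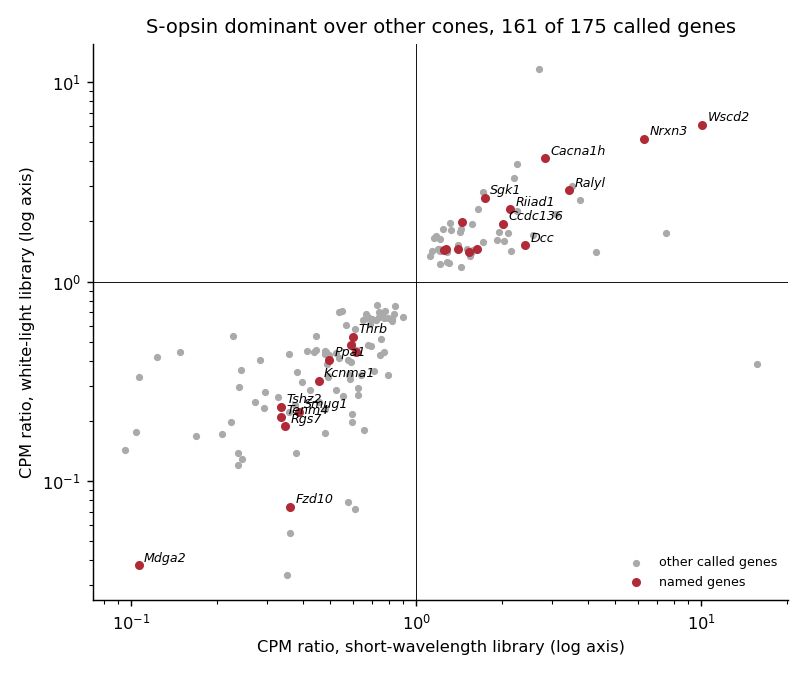
CPM ratio of S-opsin dominant over other cones in the short-wavelength library (horizontal, log axis) against that in the white-light library (vertical, log axis), for 161 of the 175 called genes, those with UMIs in every sum; red marks named genes. Apart from Dqx1, each point lies above 1 on both axes or below 1 on both, with Wscd2 and Nrxn3 farthest up among the named genes and Mdga2 farthest down. The genes were called from both libraries together.

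Nrxn3 rose most clearly, from 269 CPM in the other cones to 1698 CPM under short-wavelength light and from 296 to 1537 CPM under white light (log2 fold change 2.56, SE 0.10, edgeR adjusted p = 1.98e-18). It lies at chr12:88722876-90334935. Wscd2 rose from 7.20 to 72.5 CPM and from 13.5 to 82.5 CPM (log2 3.05, SE 0.37, edgeR adjusted p = 2.40e-06), and Ralyl from 28.4 to 97.9 CPM and from 39.4 to 113 CPM (log2 1.70, SE 0.25, edgeR adjusted p = 5.30e-05). These 3 genes were higher in both libraries. Members at or above 0.98 gave 831 of the 867 and 344 of the 354 Nrxn3 UMIs of S-opsin dominant cones.

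Ccdc136 (chr6:29396309-29426994, plus strand), a coiled-coil protein gene, rose 2.01-fold. It stood at 1569 against 780 CPM under short-wavelength and at 1503 against 772 CPM under white light (log2 1.01, SE 0.09, edgeR adjusted p = 8.67e-09). Its annotated start lies 7841 bases beyond the end of Opn1sw (chr6:29376671-29388468, minus strand) in the GENCODE annotation of mm10, so the genes are transcribed away from each other. RefSeq places the start of Opn1sw further inside, and the start sites of the printed windows lie 16062 bases apart. Ccdc136 followed the Opn1sw share over all cones. It stood at 132 and 68.5 CPM in cones with a share of at most 0.1, at 1089 and 1244 CPM between 0.1 and 0.8, at 1506 and 1454 CPM between 0.8 and 0.9, and at 1479 and 1523 CPM between 0.9 and 0.98. At or above 0.98 it stood at 1645 and 1494 CPM, and rod barcodes held 8.79 and 10.01 CPM. The log2 fold change of S-opsin dominant cones was 3.83 (edgeR adjusted p = 5.25e-153) against cones with a share of at most 0.1, and 0.29 (edgeR adjusted p = 0.245) against cones between 0.1 and 0.9. Calu, which overlaps the other end of Opn1sw by 440 bases on the opposite strand, stood at 40.0 and 49.4 CPM at or above 0.98 and at 39.5 and 36.9 CPM at or below 0.1.

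Cacna1h, of a T-type calcium channel, rose from 23.6 to 66.6 CPM and from 15.7 to 65.2 CPM, on 34 and 15 UMIs in the members (log2 1.67, SE 0.31, edgeR adjusted p = 0.00172). Glo1, of glyoxalase 1, which clears methylglyoxal, rose from 514 to 836 CPM and from 514 to 747 CPM (log2 0.65, SE 0.10, edgeR adjusted p = 0.000182). Sgk1, a stress-responsive kinase gene, rose from 120 to 208 CPM and from 95.6 to 252 CPM (log2 1.02, SE 0.17, edgeR adjusted p = 0.000509), and Dcc, a netrin receptor gene, rose by 1.08 on the log2 scale. Sgk1 is also abundant in rod barcodes, at 383 and 405 CPM, whereas Glo1 and Cacna1h stood lower there, at 222 and 240 CPM and at 0.755 and 1.04 CPM. The remaining named genes that rose were Guca1b, Guca1a, Riiad1, Tma7, Vtn and Vax2os, with log2 fold changes from 0.44 to 1.15.

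Rod RNA was higher in S-opsin dominant cones. All 14 rod markers measured were higher, and 8 passed the test, where 0.658% of all genes tested were called higher. The list's median log2 fold change was 0.38, against 0.01 over all genes. The markers summed to 23370 and 28760 CPM in the members against 19800 and 20710 CPM in the other cones. Guca1b, a guanylate cyclase activator gene that rods share, rose from 612 to 883 CPM and from 669 to 1325 CPM (log2 0.75, SE 0.11, edgeR adjusted p = 3.46e-05). Among cells with low rod and bipolar RNA the median of the rod list was 0.024, and the selection used 8 of its genes. Among these fewer cells 7 named genes that rose did not pass, with edgeR adjusted p from 0.0677 to 0.796, while their differences kept their direction. The log2 fold change was 0.62 for Guca1b (0.75 with all cells), 0.62 for Guca1a (0.46), 0.90 for Riiad1 (1.15), 0.32 for Tma7 (0.44), 0.48 for Vtn (0.53), 0.93 for Dcc (1.08) and 0.58 for Vax2os (0.59). Bipolar markers went the other way: of 14, 7 were measured, of which 2 were higher and 5 lower. Pcp2, Trpm1 and Car8 passed the test as lower, where 1.33% of all genes tested were called lower. With the barcodes of highest doublet score left out, Pcp2 (log2 -2.66 against -4.24, edgeR adjusted p = 0.0630) and Car8 (log2 -0.87 against -1.33, edgeR adjusted p = 0.320) did not pass, and Trpm1 had too few UMIs to be tested. The list summed to 599 and 673 CPM in the members against 690 and 745 CPM, so bipolar RNA was present in both groups. Of its 14 genes, 3 (Isl1, Vsx1 and Neto1) were at 0 in the members. Whether RNA of rods and bipolar cells contributes to other called genes was not tested beyond these values.

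Among genes that fell, Mdga2, of a membrane protein that binds neuroligins at synapses, had the smallest p. It stood at 25.5 against 240 CPM under short-wavelength and at 8.69 against 229 CPM under white light (log2 -3.53, SE 0.27, edgeR adjusted p = 1.45e-10), on 13 and 2 UMIs in the members. Its fall began before the threshold: cones between 0.8 and 0.9 held 82.0 and 96.9 CPM and cones between 0.1 and 0.8 held 253 and 345 CPM. Cdh12, a cadherin gene, had 0 and 2 UMIs in the members and 65.2 and 109 CPM in the other cones (edgeR adjusted p = 9.42e-07). It was concentrated in cones with a share of at most 0.1, at 131 and 213 CPM, against 24.6 and 25.9 CPM between 0.1 and 0.8. Cadps, of a factor that primes vesicles for release, had no UMI in any member, against 121 UMIs (35.7 CPM over both libraries) in the other cones. Against the limit of 3 counts over both libraries that is at least 8.81-fold lower. Pcp2, the bipolar marker whose call was lost without the highest doublet scores, had 2 UMIs in the members and 183 in the other cones, and 2 and 53 without those barcodes.

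Thrb, the thyroid hormone receptor beta gene, fell by 0.80 on the log2 scale (SE 0.10, edgeR adjusted p = 4.12e-06). It stood at 780 against 1304 CPM under short-wavelength and at 660 against 1249 CPM under white light, so the members held less in both libraries. Thrb declined with the Opn1sw share over the cone classes in the short-wavelength library, from 1423 CPM at or below 0.1 to 599 CPM at or above 0.98. In the white-light library it lay between 1228 and 1272 CPM up to 0.9, at 922 CPM between 0.9 and 0.98, and at 550 CPM above. Rod barcodes held 766 and 787 CPM. The counts do not separate the receptor's isoforms. Among cells with low rod and bipolar RNA its log2 fold change was -0.65 and did not pass (edgeR adjusted p = 0.0649).

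Tshz2 stood at 123 and 91.2 CPM in the members against 368 and 386 CPM (log2 -1.72, SE 0.16, edgeR adjusted p = 1.69e-08), and Rgs7 at 96.0 and 65.2 CPM against 277 and 346 CPM (log2 -1.79, SE 0.19, edgeR adjusted p = 1.19e-07). Smug1, a DNA repair glycosylase gene, stood at 86.2 and 52.1 CPM against 222 and 235 CPM (log2 -1.58, SE 0.20, edgeR adjusted p = 4.20e-06). Like Cdh12 it was highest at or below a share of 0.1, at 344 and 356 CPM. Kcnma1, of a calcium-activated potassium channel, fell by 1.28 on the log2 scale, Ppa1, of inorganic pyrophosphatase, by 1.10, and Fzd10 and Tenm4 by 1.92 and 1.73. Lrfn2, a synaptic adhesion gene, and Rd3l each fell by 0.85. Among the fewer cells with low rod and bipolar RNA, Rd3l (log2 -0.51, edgeR adjusted p = 0.425), Tenm4 (log2 -1.26, edgeR adjusted p = 0.0739) and Cadps (0 UMIs against 54, edgeR adjusted p = 0.0637) lay in the same direction and did not pass. Rd3l also moved to a log2 fold change of -0.26 when cells were thinned to 1000 UMIs (edgeR adjusted p = 0.749).

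Of 30 regulators of opsin choice and photoreceptor fate, 23 were tested, of which 13 were higher and 10 lower, and 1 rose and 3 fell by the test (median log2 0.06), where 0.658% of all genes tested rose and 1.33% fell. Thrb, Samd7 and Nr2f2 fell. Samd7, a photoreceptor silencing factor gene, stood at 110 and 78.2 CPM against 155 and 219 CPM (log2 -0.81, SE 0.20, edgeR adjusted p = 0.0224). Nr2f2, an orphan nuclear receptor gene of the dorsal retina, stood at 7.83 and 4.34 CPM, on 4 and 1 UMIs, against 33.2 and 36.0 CPM (log2 -2.31, SE 0.53, edgeR adjusted p = 0.0110), and both kept their direction among cells with low rod and bipolar RNA without passing, at log2 -1.96 for Nr2f2 (edgeR adjusted p = 0.254) and -1.04 for Samd7 (edgeR adjusted p = 0.0746). Nrl, the rod fate factor gene, rose by the test (log2 0.48, SE 0.11, edgeR adjusted p = 0.0161) and did not pass among cells with low rod and bipolar RNA, a selection that used it (log2 0.16, edgeR adjusted p = 0.964). Against only cones between 0.1 and 0.9, Samd7 (log2 -0.64, edgeR adjusted p = 0.118) and Nrl (log2 0.41, edgeR adjusted p = 0.0720) did not pass, while Thrb did (log2 -0.75, edgeR adjusted p = 1.71e-07). Rxrg, Rorb, Crx and Neurod1, other regulators of cone opsins and photoreceptors, had log2 fold changes of 0.10, -0.10, -0.05 and 0.06, with edgeR adjusted p from 0.852 to 0.957. Vax2, a ventral retina factor gene, stood at 39.2 and 47.8 CPM against 24.4 and 27.0 CPM, a difference that did not pass (log2 0.75, SE 0.34, edgeR adjusted p = 0.448).

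The counts that follow stand against 0.658% of all 8819 genes that rose and 1.33% that fell. Of 25 genes of cone phototransduction, 18 were higher and 7 lower (median log2 0.09), and Guca1a, Guca1b, Slc24a1 and Sag, all of which rods use as well, rose by the test. Pde6c, Gnb3 and Cngb3 did not pass, with edgeR adjusted p = 0.149, 0.271 and 0.892. Of 29 ribbon synapse genes measured, Nrxn3 rose and Dmd, of dystrophin, fell (log2 -0.30, edgeR adjusted p = 0.0352), with 15 higher and 14 lower in all (median log2 0.00236). Ribosomal protein genes were higher in 75 of 80 (median log2 0.20), of which 3 passed. Over cells with at least 2500 UMIs that median was 0.10. Mitochondrially encoded genes were lower in 11 of 13 (median log2 -0.15), of which 0 passed. That median was -0.37 over cells with at least 2500 UMIs and turned to 0.075 among cells with low rod and bipolar RNA. Of 16 heat shock and chaperone genes 10 were higher and 0 passed (median log2 0.09), and of 39 nuclear genes of oxidative phosphorylation 20 were higher and 1 passed (median log2 0.00451).

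Between the light conditions, S-opsin dominant cones held more RNA of 265 genes (8.08%) and less of 155 (4.73%) under short-wavelength light, past 1.5-fold, among 3279 genes with at least 50 UMIs over both libraries. With TMM scaling the numbers were 226 and 207. These are differences between 2 libraries. Members were shallower under white light, and the white-light sum held 230255 UMIs outside the 6 genes against 510604. Among members with at least 2500 UMIs, 235 of 3040 genes (7.73%) were higher and 155 (5.1%) lower, and with cells thinned to 1000 UMIs 38 were higher and 54 lower.

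Nrxn3, Ccdc136 and Thrb were called by the test of S-opsin dominant against all other cones. Summed over all members, they differed between the lights by less than counting error. Nrxn3 was at 1698 and 1537 CPM (ratio 1.10, 0.975 to 1.253), Ccdc136 at 1569 and 1503 CPM (1.04, 0.919 to 1.19) and Thrb at 780 and 660 CPM (1.18, 0.977 to 1.43). Each interval includes 1. In members at or above 0.98 alone, Nrxn3 was higher under short-wavelength light, at 3018 against 2124 CPM, on 831 and 344 UMIs. Between 0.9 and 0.98 it was at 153 and 146 CPM, on 36 and 10 UMIs. Members at or above 0.98 gave 275320 of the members' 510604 UMIs outside the 6 genes under short-wavelength light and 161958 of 230255 under white light. The part of this mix in the Nrxn3 ratio over all members was not tested. Of the 175 genes called between the cone groups, 103 had at least 50 UMIs in the members, and for 75 of these the interval included 1. Of 48 that were higher in S-opsin dominant cones, 17 had an interval wholly below 1 and 0 one wholly above, and of 55 that were lower, 11 lay above and 0 below. Over all 3279 genes, 5.46% lay wholly above 1 and 5.98% below. Both comparisons use the same member sums, so these counts are a description. Guca1b was at 883 and 1325 CPM (0.667, 0.575 to 0.774), Guca1a at 3500 and 4495 CPM (0.779, 0.721 to 0.841) and Tma7 at 3412 and 4265 CPM (0.80, 0.739 to 0.866), each lower under short-wavelength light.

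Of 25 cone phototransduction genes, 11 were higher and 14 lower under short-wavelength light, with a median log2 ratio of -0.03 against 0.05 over all genes. Of 24 with at least 50 UMIs, 7 had an interval wholly above 1 and 5 wholly below. Those below were Sag, Pdc, Rcvrn, Guca1a and Guca1b, which rods use as well. Among those above, Pde6c was at 1146 and 842 CPM (1.36, 1.15 to 1.61), Cngb3 at 2977 and 2419 CPM (1.23, 1.12 to 1.36) and Gnb3 at 3278 and 2866 CPM (1.14, 1.05 to 1.253). In the other cones these ratios were 1.03, 1.02 and 1.02. Cnga3, the other cone channel subunit gene, was at 68.5 and 99.9 CPM (0.686, 0.394 to 1.22), an interval that includes 1. Rod RNA was lower under short-wavelength light. Gnat1, of rod transducin, stood at 1122 and 1815 CPM (0.618, 0.544 to 0.703) and Nrl at 517 and 821 CPM (0.630, 0.521 to 0.763). Of 14 rod markers, 12 lay below 1, and the median log2 ratio was -0.32 against -0.06 in the other cones and 0.05 over all genes. The part of rod RNA in the cone gene ratios was not tested.

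Stress and protein synthesis genes were lower under short-wavelength light in these cells. Hspa8, of a constitutive chaperone, stood at 544 and 1012 CPM (0.538, 0.450 to 0.643), and at a ratio of 0.600 (0.548 to 0.656) in the other cones. Hsp90ab1 stood at 313 and 486 CPM (0.644, 0.503 to 0.828) and Hsp90aa1, also a chaperone gene, at 1300 and 1750 CPM (0.743, 0.656 to 0.843), with ratios of 0.690 and 0.772 in the other cones. Of 16 heat shock and chaperone genes, 13 lay below 1, and the median log2 ratio was -0.42 against -0.17 in the other cones. Ubb, a ubiquitin gene, stood at 2352 and 3370 CPM (0.698, 0.637 to 0.765). Ribosomal protein genes were lower in 77 of 80 (median log2 -0.35, against -0.18 in the other cones). Rpl9 was at 874 and 1190 CPM (0.734, 0.630 to 0.856). Of 39 nuclear oxidative phosphorylation genes 29 were lower (median log2 -0.22, against -0.13), with Atp5b, of ATP synthase, at 609 and 808 CPM (0.754, 0.627 to 0.909) and at a ratio of 0.709 in the other cones. Uqcc2, an assembly factor gene of respiratory complex III, was at 84.2 and 204 CPM (0.413, 0.266 to 0.638), against a ratio of 0.978 in the other cones. The difference between S-opsin dominant and other cones in these ratios was not tested.

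**Figure D5:**
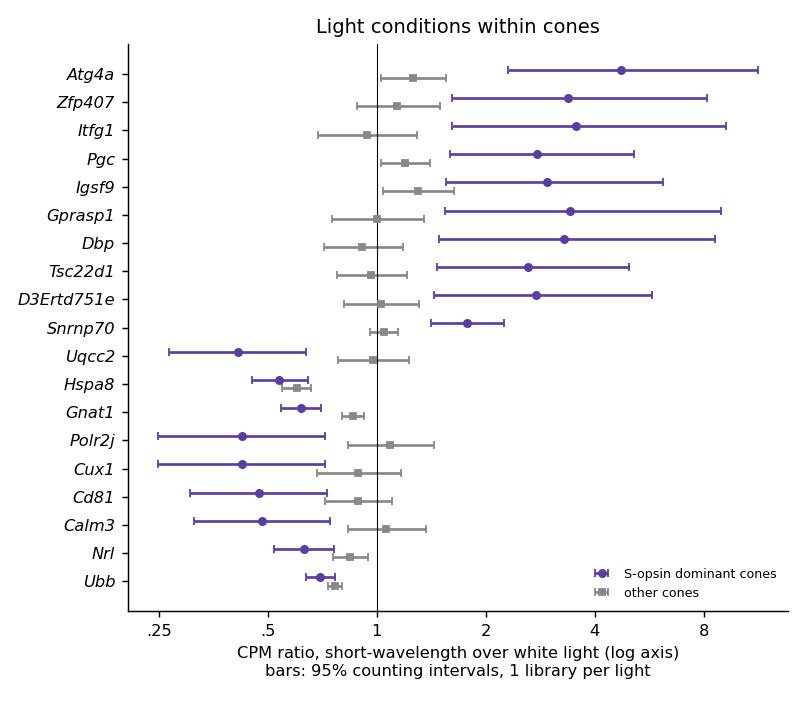
CPM ratio of short-wavelength over white light (horizontal, log axis) with exact 95% counting intervals for the 19 named genes, in S-opsin dominant cones (circles) and in other cones (squares). Hspa8 and Ubb lie below 1 in both groups, while the genes at the top, from Atg4a to Snrnp70, lie above 1 in S-opsin dominant cones. In the other cones Atg4a, Pgc and Igsf9 also lie above 1, at ratios of 1.26, 1.20 and 1.30, and the intervals of the remaining 7 include 1.

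The genes higher under short-wavelength light by the naming rule were Atg4a, Zfp407, Itfg1, Pgc, Igsf9, Gprasp1, Dbp, Tsc22d1, D3Ertd751e and Snrnp70. Atg4a, of a protease that processes autophagy proteins, stood at 164 and 34.7 CPM on 84 and 8 UMIs (4.74, 2.30 to 11.3), and at a ratio of 1.26 (1.02 to 1.55) in the other cones. Dbp, a clock output factor gene, stood at 99.9 and 30.4 CPM on 51 and 7 UMIs (3.29, 1.49 to 8.58). Snrnp70, of a spliceosome protein, rested on more molecules, at 738 and 417 CPM on 377 and 96 UMIs (1.77, 1.41 to 2.24), against a ratio of 1.05 (0.956 to 1.15) in the other cones. Apart from Snrnp70, each of these genes had at most 15 UMIs in the white-light members. Polr2j, Cux1, Cd81 and Calm3 were lower under short-wavelength light, at ratios of 0.423, 0.423, 0.471 and 0.482, on 30 to 47 UMIs in each library. Cux1 turned to a ratio of 1.15 when cells were thinned to 1000 UMIs.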

How the data were processed

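Retinal tissue was minced, digested, strained and loaded on the 10x Genomics Chromium platform with 3′ chemistry of unsettled version, per the labels' protocols. The authors deposited unnormalised UMI counts for 32285 genes in each barcode. Cell Ranger 9.0.0 made them, per the file headers, and the submitters' processing notes name mm10. Doublets were kept, as the members' rule asks. CPM values and totals leave out the 6 rule genes. S-opsin dominant and other cones were compared on UMI sums per library with edgeR 4.0.16 (R 4.3.3) and TMM factors, for genes with at least 50 UMIs over the 4 sums and 5 per library. Light ratios carry exact conditional binomial intervals, shares Clopper-Pearson intervals, and log2 ratios in lists add 5 CPM. Genes were named by p (up to 15 in each direction) or, for light, by the interval bound nearer to 1 (up to 10), with at least 50 UMIs and an interval wholly beyond 1.25-fold. Mitochondrial, ribosomal, haemoglobin and predicted genes were left out of both rankings. Measured members of the regulator, dorsal, ventral and S-cone lists, and up to 4 members of each other list by UMIs, were named as well, while Hopx, Cngb3, Kcne2, Cadps and other genes outside these rules were chosen after their values were seen. The members and the 25 lists were chosen with earlier results of these data known. The edgeR test and the ratio intervals were tried on counts simulated with a spread close to that fitted here or with counting error only. Those trials do not cover variation between animals. Alternatives were other shares, 20 opsin UMIs, a stricter cell filter, the highest Scrublet scores removed (scanpy 1.11.5), other comparison groups, DESeq2 1.42.0, other totals, scalings and minimum counts, and cells thinned to 1000 UMIs. Cells of at least 2500 UMIs, cells with low rod and bipolar RNA, co-expressing cones as the comparison and a share of 0.98 were added after seeing the data. Some genes that met the naming rule are not reported here.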

Additional observations from a re-analysis of the deposited data

Results flagged for a closer look

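Some named genes lay on one side of 1 between the lights in S-opsin dominant cones and on the other side in the other cones. With 1 library per light, these differences were not tested. Under short-wavelength light Itfg1 had a ratio of 3.54 in S-opsin dominant cones against 0.938 in the other cones, Dbp 3.29 against 0.912, and Tsc22d1 2.61 against 0.966. Polr2j had a ratio of 0.423 against 1.09 and Calm3 0.482 against 1.06. In each case the interval in the other cones included 1.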

How the results depend on the processing

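Shares, counts and lists depended on the choices below, and the causes were not tested unless the alternative itself holds fewer cells or genes. With an opsin share of 0.8, members were 38.5% and 38.6% of cones, and 460 genes were higher under short-wavelength light. With 0.95, they were 13.4% of short-wavelength cones, 176 genes were lower than in other cones and 172 higher under short-wavelength light. Against the other cones, 88 genes were higher with only cones at or below 0.1 as the comparison, 32 with only cones between 0.1 and 0.9, 6 (7 lower) with DESeq2, 17 (22 lower) with thinning, and 13 (21 lower) with low rod and bipolar RNA. Of 117 lower genes measured again with DESeq2, all 117 kept their direction and 7 their call, and of 58 higher genes 58 and 6. Thinning left 38 genes higher and 54 lower under short-wavelength light, and a minimum of 20 UMIs gave 980 and 548. Over cells of at least 2500 UMIs the mitochondrial median turned to 0.10 between lights, and was -0.37 against other cones. The ribosomal medians there were -0.27 and 0.10, and that of oxidative phosphorylation -0.081 against other cones. With low rod and bipolar RNA, members were 20.8% of white-light cones. The mitochondrial median was then -0.49 between lights and turned to 0.075 against other cones, oxidative phosphorylation -0.38 and 0.097, ribosomal -0.45 between lights, and rod markers 0.024 against other cones. Cux1 turned to a light ratio of 1.15 after thinning. No paired analysis was possible because each light has 1 library. Leaving out a library leaves a value with no test: Nrxn3 was 2.38 without the short-wavelength and 2.66 without the white-light library on the log2 scale. Depth limits the light comparison, in which 9 of the 19 named genes had under 20 white-light UMIs in the members.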
